A study of Daphnia magna with 15 samples.

Results

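In the water flea Daphnia magna, whole neonates had 75 loci whose level after 24 h in imatinib mesylate lay outside the values of both etoposide-exposed and unexposed animals of control A, 38 of them higher and 37 lower with imatinib. The higher members were 0.215% and the lower members 0.209% of the 17709 loci that averaged 1 FPKM or more (fragments per kilobase of transcript, scaled to library depth) over the 15 libraries and spanned at least 300 bp, and the 75 came out of 18877 loci in all. FPKM were summed over the transcripts of a locus and put on the scale log2(FPKM + 1), which understates the differences of low loci. A locus was a member where all 3 imatinib values lay above, or all 3 below, the 6 values of etoposide and control A, where the imatinib mean differed by at least 0.7 from each of these means, and where the etoposide and control A means were less than 0.5 apart. The members were thus chosen by the measured imatinib, etoposide and control A values, and these differences are given as a description. Control B and cisplatin entered the choice through the mean over the 15 libraries alone, and not through any difference between groups.

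Daphnia magna is a small filter-feeding crustacean of fresh water and a standard animal of ecotoxicology. Imatinib is a tyrosine kinase inhibitor that blocks ABL, KIT and PDGF receptor kinases in human cells, where it is used against chronic myeloid leukaemia. Etoposide traps topoisomerase II on broken DNA, and cisplatin crosslinks DNA. Kinase inhibitors and DNA-damaging drugs thus act on different first targets.

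The animals were a laboratory strain bought from a commercial supplier, aged 48 to 72 h, and were not fed during exposure. Vessels of 25 mL of medium held 20 to 25 animals with imatinib mesylate at 2000 ng/L, with etoposide at 300 ng/L, with cisplatin at 10 ng/L, or with no drug for control A and control B. Each of the 5 groups has 3 libraries, for which 320 ng of total RNA went into a strand-marking mRNA kit. The labels do not say how many animals went into a library, which control set ran beside which drug, or whether replicates were separate vessels, so a p-value covers no more than the library-to-library spread, which may be technical. The drugs were given at different concentrations, so values for imatinib and etoposide stand side by side and are no comparison of potency. In whole animals, fewer cells of a type and less RNA per cell cannot be told apart.

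No gene names come with the locus identifiers in the files, and 0 identifiers matched the 28335 genes of the reference table (assembly ASM2063170v1.1). The loci are therefore described by position, structure and pattern, no function is given to any of them, and the tissue markers of a whole animal could not be looked up. Positions are those of the deposited table, whose starts are counted from 0. The table holds no read counts. A value of 0 stood at 1375 loci in control A 1 and at 71 to 289 loci in each of the other 14 libraries, and 5 of the 38 higher members were at 0 in control A 1.

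No member passed a test of imatinib against etoposide, so the label of a response to one drug and not the other is a matter of non-overlapping values here. For that comparison 0 of 75 members passed (limma on the 18098 loci that averaged 1 FPKM or more, Benjamini-Hochberg adjusted p under 0.05), as did 0% of all loci. The smallest adjusted p among the members was 0.158. At an unadjusted p under 0.05 stood 32 of the higher members, 35 of the lower members and 2289 of all loci, and nothing is read from the members' count because this contrast chose them. Against control A, 22 of the 37 lower and 11 of the 38 higher members passed (limma, adjusted p under 0.05), where 4.9% of all loci passed as lower and 4.14% as higher. This contrast was used by the rule too. The 33 members that passed became 3 without imatinib 2, 1 without imatinib 3, 9 without control A 2 and 21 without control B 3 (limma), and 0 in a fit of the imatinib and control A libraries alone.

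Membership itself depended on single libraries. Leaving one out also removes a condition of the rule, and gave 176 higher and 97 lower members without imatinib 1, 107 lower members without imatinib 2, 58 higher members without imatinib 3, 66 higher members without etoposide 2, 110 lower members without etoposide 3 and 83 higher members without control A 2. Without control A 1, the library with the most loci at 0, there were 39 higher members, 26 of them among the 38, and 58 lower members, 29 of them among the 37. At the 0.7 limit, XLOC_003210 (scaffold00932, 9150 to 10071) lay just inside among the higher members, with a smaller difference of 0.703, and XLOC_016291 (scaffold02821, 4832 to 8454) just outside, at 0.6998. Among the lower members XLOC_014117 (scaffold02350, 25 to 1114) lay just inside at 0.701, and XLOC_009666 (scaffold01732, 1735 to 4755) just outside at 0.691.

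**Figure D1:**
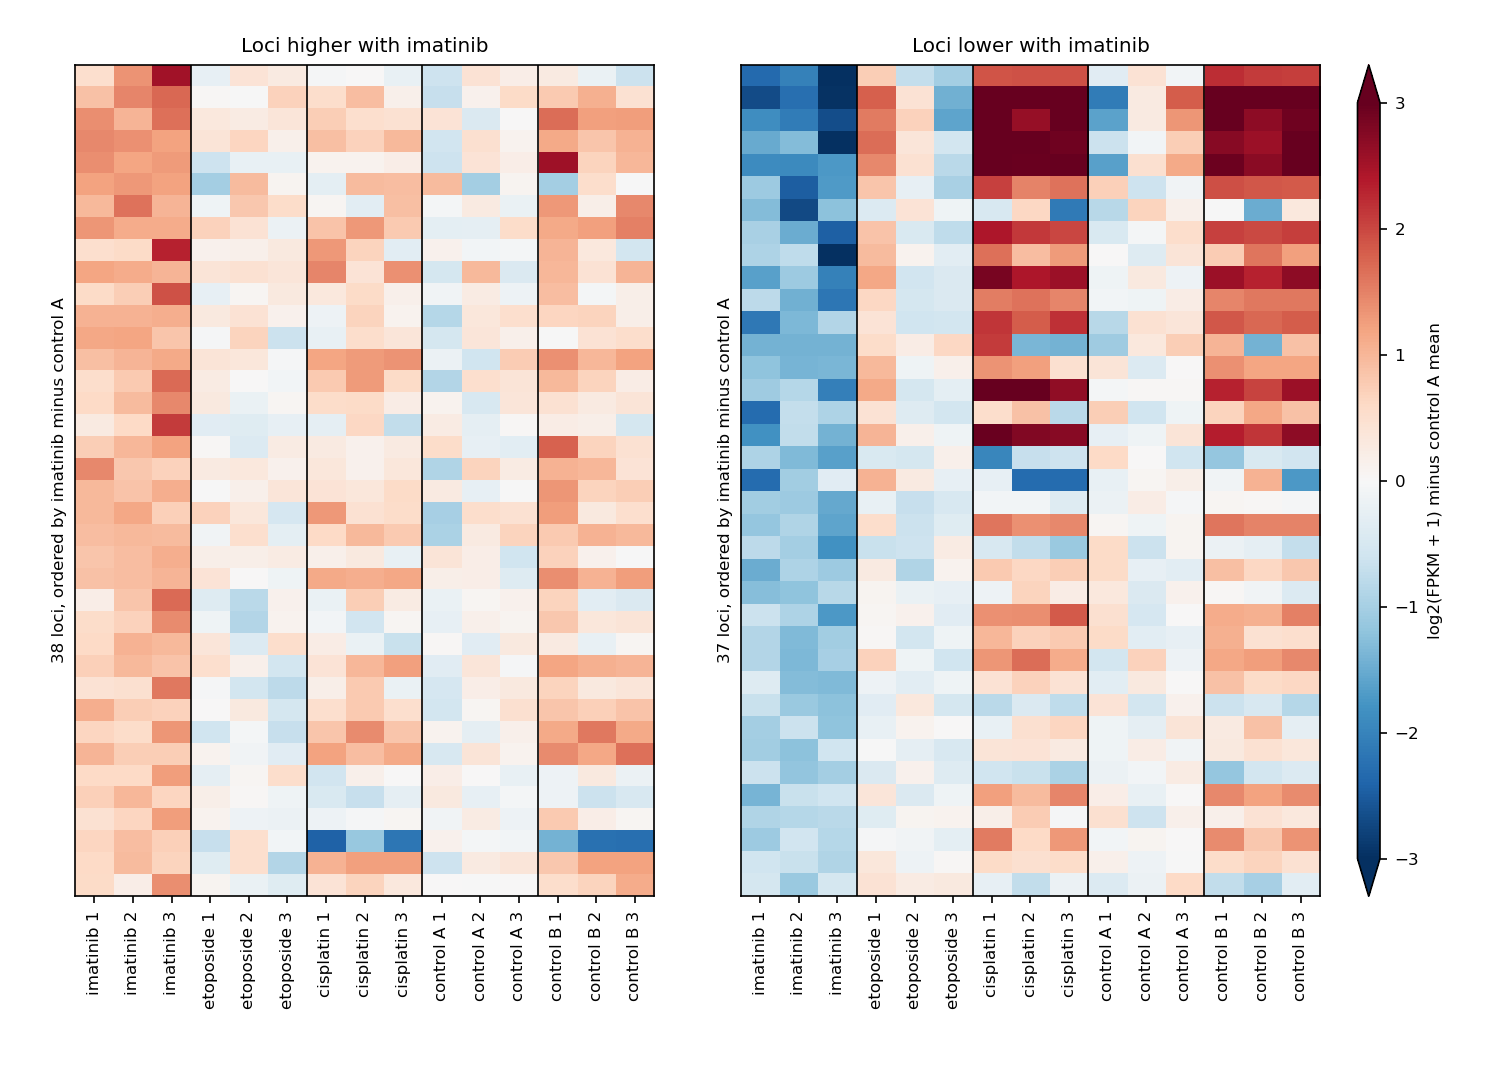
Each row is a member locus and each column a library; colour gives log2(FPKM + 1) minus the control A mean of the locus, with rows ordered by the imatinib minus control A difference, 38 higher loci on the left and 37 lower loci on the right. In many lower loci the cisplatin and control B columns are above control A while the imatinib columns are below it.

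The lower members were the more marked set. On the log2(FPKM + 1) scale, their fold below control A had a median of 2.35 and reached 7.46, and their fold below etoposide had a median of 2.09. In the lower members the median of the locus means was 3.20 FPKM with imatinib, 9.21 FPKM with etoposide, 21.8 FPKM with cisplatin, 8.39 FPKM in control A and 19.6 FPKM in control B. By these medians, etoposide and control A stood between imatinib and the other groups. This order is one of the whole set and did not hold in every part of it, as described below. The lower members were shorter than most loci, with a median span of 1201 bp against 2119.5 bp over all tested loci, and 28 of 37 consisted of 1 transcript (75.7%, against 63.1% of all tested loci). Their median of mean FPKM over all libraries was 14.9, close to the 13.6 of all tested loci.

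XLOC_008572 (scaffold01591, 70072 to 72223) was the most extreme lower member by the smaller of its differences from control A and etoposide, 2.64 on the log2 scale. Its imatinib libraries held 0.366, 0.832 and 0.128 FPKM and its etoposide libraries 29.4, 10.9 and 2.23 FPKM. Its control A libraries held 1.07, 9.72 and 30.04 FPKM. The imatinib values were the lowest, control A 1 was close above imatinib 2, and the etoposide and control A libraries were widely spread. Cisplatin, at 182, 126 and 109 FPKM, and control B, at 96.4, 85.7 and 100.3 FPKM, lay far above all of these. Against control B, which entered the rule through the mean level alone, XLOC_008572 was 67.2-fold lower with imatinib on the log2(FPKM + 1) scale (log2 difference -6.07, SE 0.864; limma, adjusted p = 0.000807), with all 3 imatinib values below all 12 others.

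XLOC_005542 (scaffold01203, 18534 to 19216) was abundant. Its levels were 25.4, 31.9 and 5.56 FPKM with imatinib, 220.9, 79.6 and 65.2 FPKM with etoposide and 103.4, 180.1 and 123.9 FPKM in control A. Imatinib 3 was the lowest library and etoposide 1 stood above the other etoposide libraries. Cisplatin averaged 498 ± 6.41 FPKM and control B 581 ± 27.9 FPKM (SD, n = 3 each), and the log2 difference of imatinib from control B was -5.02 (SE 0.541; limma, adjusted p = 0.000244). XLOC_005526 (scaffold01203, 14398 to 15402), on the same scaffold, had 0.723 and 0.474 FPKM in imatinib 1 and 2 and was listed at 0 in imatinib 3. In XLOC_005526 the etoposide libraries had 17.4, 9.09 and 1.10 FPKM, the control A libraries 1.07, 6.56 and 14.8 FPKM, and control B averaged 45.4 ± 5.64 FPKM (SD, n = 3). The log2 difference of XLOC_005526 from control B was -5.08 (SE 0.779; limma, adjusted p = 0.00117).

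**Figure D2:**
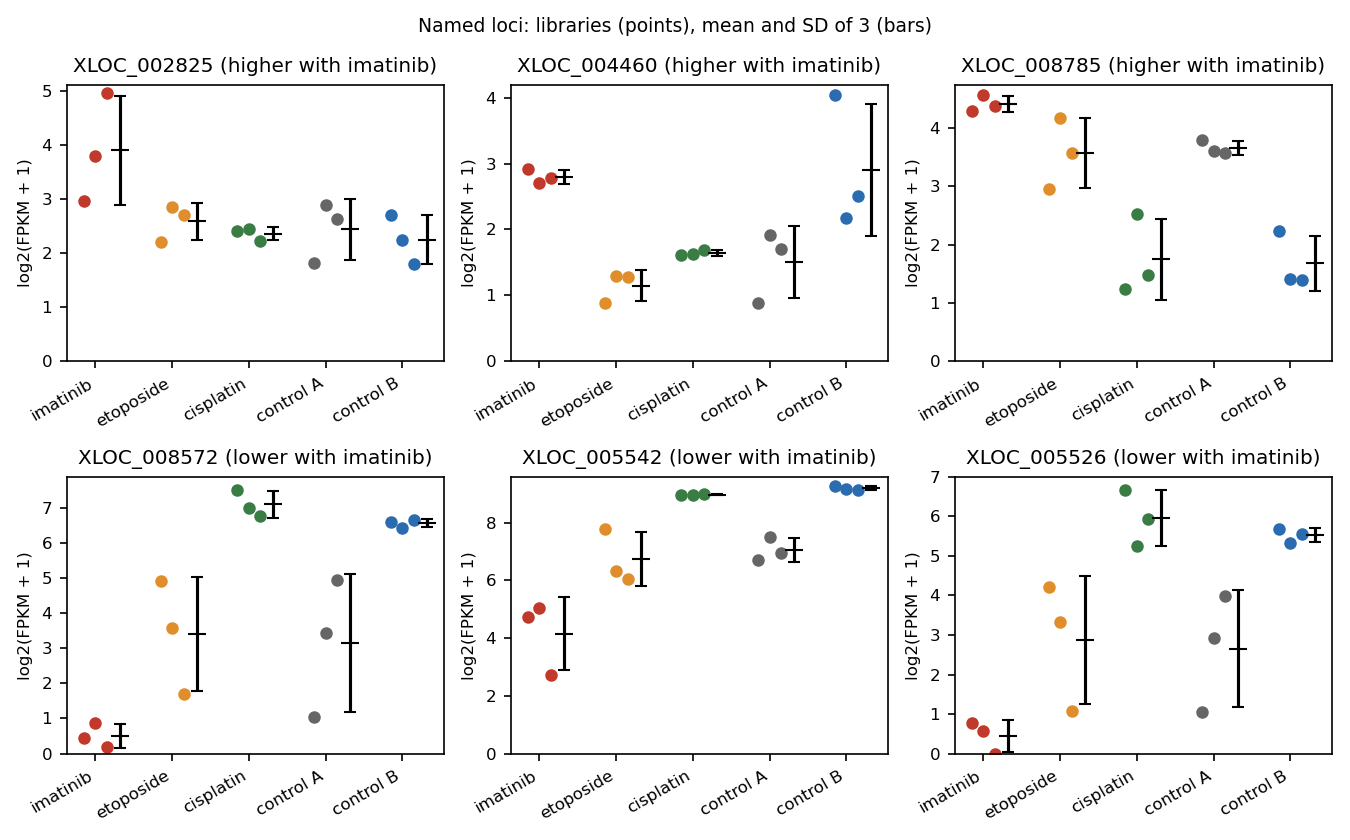
Points are libraries on the log2(FPKM + 1) scale for 3 higher loci (top) and 3 lower loci (bottom), with the mean and SD of the 3 libraries of a group as bars. In the lower loci the order of the means from low to high is imatinib, then etoposide and control A, then cisplatin and control B.

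Against control B, 29 of the 37 lower members and 4 of the 38 higher members passed in their own direction (limma, adjusted p under 0.05), where 16.9% of all loci passed as lower and 6.29% as higher. The imatinib libraries are the ones that chose the members, so the excess over the background is not independent evidence of the drug's effect. The lower members had a median log2 difference from control B of -2.23, from -6.07 to -0.04. The higher members had a median of 0.35, from -0.58 to 2.74. All loci had a median of -0.21, and relative to it the medians were -2.02 for the lower and 0.56 for the higher members. For the lower direction, scaling changed the background more than the members' count, while the count of higher members rose from 4 to 7. After quantile normalization 28 lower and 7 higher members passed (limma), where 11% of all loci passed as lower and 7.95% as higher. After median centring 28 lower and 7 higher members passed too (limma), where 6.95% of all loci passed as lower and 8.85% as higher, so that calls over all loci turned from mostly lower to mostly higher. The summed count of 33 ranged from 29 to 39 over the 23 alternatives computed.

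The values of the 3 imatinib libraries lay beyond all 6 control B and cisplatin values in 28 of 37 lower members and 11 of 38 higher members, where 31.3% of all loci had imatinib below and 10.4% had it above those 6. Together with the rule, imatinib was thus the most extreme of all 15 libraries in 39 of the 75 members. In the other members at least one control B or cisplatin value reached the imatinib range or lay past it.

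Control B lay above control A in most members of both directions, while the side of imatinib was set by the rule. In 29 of 37 lower members the control B mean lay above control A, on the far side from imatinib. The share of all loci with a higher control B mean is not given here, so nothing particular to the members is read from the 29. In 23 of the 37 all control B values were above all control A values. Over all loci this held for 27.8%, and 10.7% had all control B values below, so all loci leaned the same way. In 19 of 37 lower members control B was at least 1 above control A on the log2 scale, against 9.70% of all tested loci. Because control A helped to choose the members, these shares are a description.

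Those 19 loci, set apart after their values were seen, had a median of 4.73 FPKM with imatinib, 15.3 FPKM with etoposide, 62.9 FPKM with cisplatin, 16.2 FPKM in control A and 48.6 FPKM in control B. Etoposide 1 was the highest of its group in 18 of the 19 and etoposide 3 the lowest in 12. The share over all loci is not given beside these counts, so nothing particular to the 19 is read from them. Imatinib 3 was the lowest imatinib library in 11 of the 19, and its counts over all tested loci are given below. The other 18 lower members were smaller in level, with medians of 2.59 FPKM with imatinib, 5.84 FPKM with etoposide, 5.09 FPKM with cisplatin, 6.34 FPKM in control A and 5.38 FPKM in control B. In those 18, the 4 groups other than imatinib had similar medians.

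In 4 of the 37 lower members the control B mean was nearer to imatinib than to control A. XLOC_012862 (scaffold02147, 22364 to 22733) and XLOC_009992 (scaffold01779, 7118 to 9639) had the control B means farthest below control A. XLOC_012862 had 11.2, 8.22 and 6.49 FPKM with imatinib, 15.9, 14.96 and 24.5 FPKM with etoposide, 34.2, 22.2 and 14.2 FPKM in control A and 9.39, 15.8 and 14.6 FPKM in control B. The control B values overlapped the imatinib values, and the difference between these groups did not pass (log2 difference -0.56, 95% interval -1.41 to 0.28; limma, adjusted p = 0.317). In XLOC_009992 imatinib averaged 3.20 ± 0.831 FPKM, control A 7.07 ± 1.26 FPKM and control B 4.04 ± 1.29 FPKM (SD, n = 3 each), with a log2 difference of -0.24 between imatinib and control B (95% interval -0.76 to 0.27; limma, adjusted p = 0.489).

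**Figure D3:**
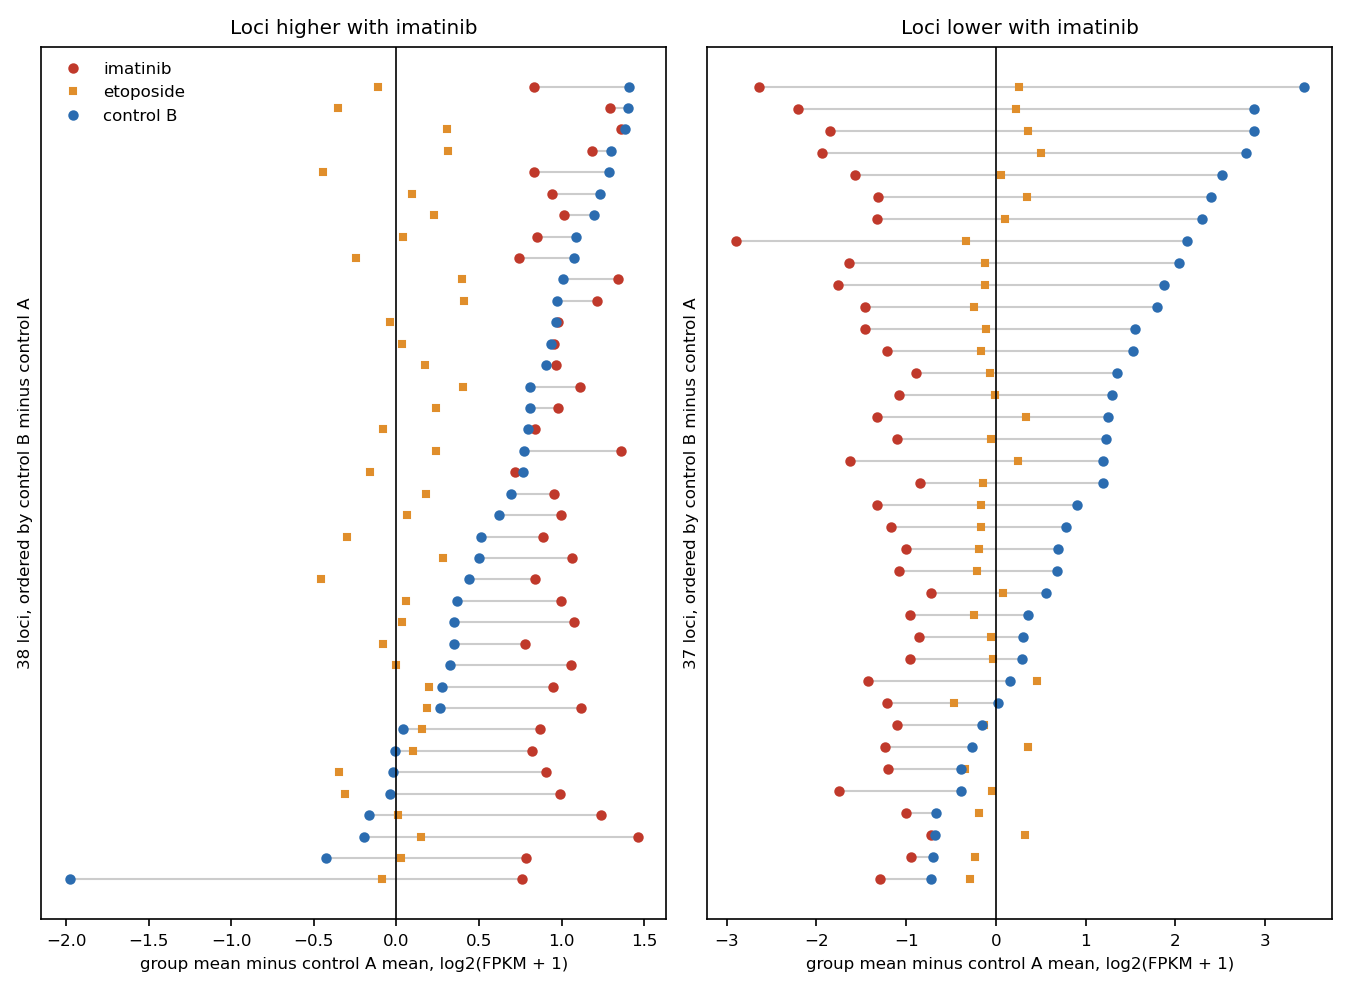
Each row is a member locus; points give the imatinib, etoposide and control B means minus the control A mean on the log2(FPKM + 1) scale, with a line from imatinib to control B. In 23 of 38 higher loci control B lies nearer to imatinib than to control A, and in 29 of 37 lower loci it lies on the other side of control A. Over all loci, all control B values lay above all control A values in 27.8% and below them in 10.7%.

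The higher members were smaller in level and in size of difference. On the log2(FPKM + 1) scale, their fold over control A had a median of 1.96 and reached 2.75, and their fold over etoposide had a median of 1.90. Their median of mean FPKM was 3.92, and 21 of 38 averaged under 5 FPKM (55.3%, against 23.4% of all tested loci). Their median span of 2141 bp was close to that of all tested loci, and 28 of 38 had 1 transcript. In the higher members the median of the locus means was 6.41 FPKM with imatinib, 2.19 FPKM with etoposide, 4.11 FPKM with cisplatin, 2.65 FPKM in control A and 4.47 FPKM in control B.

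In 23 of these 38 loci the control B mean was nearer to imatinib than to control A, and in 10 it was beyond imatinib. XLOC_004460 (scaffold01077, 13865 to 14979) showed this. It had 6.52, 5.49 and 5.87 FPKM with imatinib, 0.845, 1.45 and 1.42 FPKM with etoposide and 0.852, 2.79 and 2.26 FPKM in control A. Control B had 15.5, 3.49 and 4.68 FPKM in XLOC_004460, around the imatinib values, so the locus was high in unexposed animals of one control set. The log2 difference from control B was -0.11 (95% interval -0.98 to 0.77; limma, adjusted p = 0.869), and it was 0.46 without control B 1. XLOC_009630 (scaffold01728, 20124 to 21402) had 4.10, 3.21 and 3.25 FPKM with imatinib, 1.73, 1.37 and 1.00 FPKM with etoposide, 0.802, 2.32 and 1.71 FPKM in control A and 5.81, 4.64 and 6.93 FPKM in control B. Here every control B value was above every imatinib value, at a log2 difference of -0.58 (limma, adjusted p = 0.0863, and 0.0329 without control A 1).

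The 4 higher members that passed against control B were XLOC_008785, XLOC_002825, XLOC_009062 and XLOC_018132, all with imatinib above the 12 other libraries. Against control A, XLOC_009062 passed (limma, adjusted p = 0.0252). XLOC_008785 (limma, adjusted p = 0.193) and XLOC_002825 (limma, adjusted p = 0.0573) did not. XLOC_008785 (scaffold01615, 22558 to 25036) had 18.6, 22.8 and 19.8 FPKM with imatinib, 6.78, 16.9 and 10.9 FPKM with etoposide and 12.9, 11.1 and 10.9 FPKM in control A. Its cisplatin libraries had 1.35, 4.77 and 1.79 FPKM and its control B libraries 3.69, 1.66 and 1.62 FPKM, below every library of the other groups. The log2 difference of XLOC_008785 from control B was 2.74 (SE 0.360; limma, adjusted p = 0.000539), the largest of the higher members, and control B minus control A was -1.98. XLOC_008785 overlaps another locus, and how reads of overlapping loci were assigned is not given in the sources used here.

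XLOC_002825 (scaffold00885, 9876 to 15306), with 7 transcripts, had 6.73, 12.9 and 29.96 FPKM with imatinib, 3.58, 6.21 and 5.54 FPKM with etoposide, 2.5, 6.38 and 5.18 FPKM in control A and 5.5, 3.75 and 2.45 FPKM in control B. Imatinib 1 was close to the highest control A library, and imatinib 3 carried most of the difference. Its log2 difference from control B was 1.65 (SE 0.438; limma, adjusted p = 0.018), and the call was lost without imatinib 3 (1.13, adjusted p = 0.0645), control B 2 (1.66, adjusted p = 0.0506) and without control B 3 (1.42, adjusted p = 0.077), each by limma, and in the fit of imatinib and control B alone (adjusted p = 0.0598, and 0.154 with the replicate block). XLOC_009062 (scaffold01645, 10159 to 11001) was steadier, at 25.4, 31.2 and 24.3 FPKM with imatinib, 17.3, 15.6 and 13.7 FPKM with etoposide, 18.7, 12.7 and 14.6 FPKM in control A and 13.5, 9.25 and 10.6 FPKM in control B. It was higher than control B by 1.21 on the log2 scale (SE 0.182; limma, adjusted p = 0.00106) and kept the call in all 23 alternatives computed. XLOC_018132 (scaffold03378, 5090 to 9871) differed from control B by 0.83 (limma, adjusted p = 0.0412) and lost the call without imatinib 2, imatinib 3, etoposide 2, cisplatin 3, or either of control B 1 and control B 3 (adjusted p from 0.0521 to 0.158 in limma), and with the replicate block in the fit of those 2 groups alone (adjusted p = 0.123). XLOC_009062 and XLOC_018132 were named after their values were seen.

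Imatinib 3 was the highest imatinib library in 21 of 38 higher members and the lowest in 18 of 37 lower members. Over all tested loci it was the highest in 6078 and the lowest in 6375 of 18098. Imatinib 3 lay above the mean of imatinib 1 and 2 by a median of 0.17 in the higher members and below it by a median log2 of -0.14 in the lower members, against -0.01 over all tested loci. Without imatinib 3 there were 58 higher and 53 lower members.

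The values of cisplatin and control B entered the rule through the level limit alone. Theirs was the only tested comparison without a group whose differences chose the members. No member passed cisplatin against control B, 0 of 75 against 0% of all loci (limma, smallest adjusted p = 1). At an unadjusted p under 0.05 stood 5 of 38 higher members, 0 of 37 lower members and 223 of all 18098 loci. In the fit of these 2 groups alone with the replicate block, 6 higher members, 7 lower members and 962 of all loci had an unadjusted p under 0.05, and again 0 passed after adjustment (limma, smallest adjusted p among the members 0.721). All 7 higher members whose cisplatin and control B values did not overlap had cisplatin below, where 4.07% of all loci had cisplatin below and 4.11% above. The median difference of the higher members was -0.16 on the log2 scale, with 26 of 38 negative, against a median of 0.01 and 47.0% negative over all loci. The lower members had a median of -0.01, with 3 entirely above and 2 entirely below control B. The smallest p was that of XLOC_018494 (scaffold03510, 4580 to 8393), named for it after its values were seen.

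In XLOC_018494 cisplatin had 61.3, 51.9 and 50.3 FPKM and control B 117.7, 85.6 and 87.3 FPKM, with no overlap. The log2 difference was -0.81 (95% interval -1.27 to -0.35; limma, adjusted p = 1, unadjusted p = 0.00235). The same locus had 96.3, 75.0 and 116.6 FPKM with imatinib, 45.0, 43.2 and 46.8 FPKM with etoposide and 48.4, 26.7 and 36.5 FPKM in control A. Imatinib and control B values thus overlapped. Every cisplatin value lay below these and above every etoposide and control A value.

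**Figure D4:**
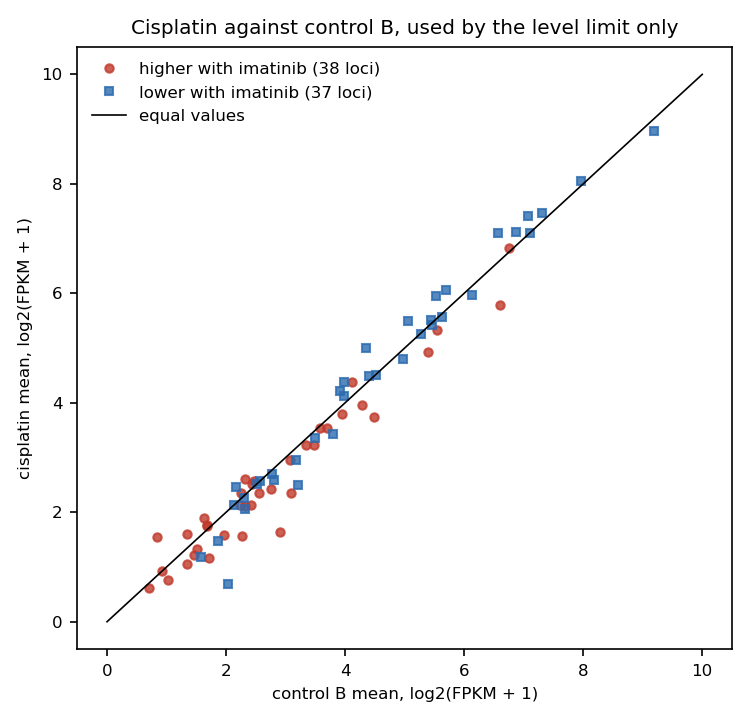
Each point is a member locus, with the control B mean on the horizontal and the cisplatin mean on the vertical axis, both on the log2(FPKM + 1) scale; the line marks equal values. Lower members lie about the line with a median difference of -0.01, and higher members slightly below it with a median of -0.16.

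The members lay on 69 scaffolds, and 5 of these held more than 1. Scaffold01591 held 3 lower members, the most of any: XLOC_008588 (40898 to 42585), XLOC_008572 and XLOC_008594 (76110 to 78702). XLOC_008588 had 7.93, 2.42 and 4.85 FPKM with imatinib, 33.1, 15.2 and 8.78 FPKM with etoposide and 30.5, 11.4 and 16.7 FPKM in control A, below a control B mean of 68.8 ± 2.45 FPKM (SD, n = 3). XLOC_008594 had 0.896, 0.871 and 1.15 FPKM with imatinib, 18.1, 8.73 and 3.00 FPKM with etoposide and 1.30, 8.85 and 14.5 FPKM in control A, below a control B mean of 50.9 ± 5.15 FPKM (SD, n = 3). Both were lower with imatinib than in control B, XLOC_008588 by a log2 difference of -3.63 (limma, adjusted p = 0.000469) and XLOC_008594 by one of -4.72 (limma, adjusted p = 0.000542).

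Many other loci of that scaffold had low imatinib values too, and many had low etoposide values. Of its 29 tested loci that were not members, 22 had an imatinib mean below control A, 24 one below etoposide, 21 had an etoposide mean below control A, and 20 had all imatinib values below all control B and cisplatin values. Over all 32 tested loci, members included, the median log2 difference from control A was -1.14 for imatinib and -0.43 for etoposide, and the median imatinib minus control B difference was -2.26. Another 8 of its loci were at least 0.7 below both means without being members; in all 8 the imatinib values overlapped those of etoposide or control A, in 4 of them etoposide also differed from control A by 0.5 or more, and 2 spanned under 300 bp.

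Scaffold01251 as a whole showed little against control A, with an imatinib mean below control A in 29 of 45 tested loci and a median difference of -0.12 on the log2 scale. Its imatinib mean was below control B in 34 of the 45. In 23 of the 45 all imatinib values lay below all 6 control B and cisplatin values, where 31.3% of all loci did. Scaffold01251 held the higher member XLOC_006000 (120868 to 134573), at a log2 difference of 1.06 from control A, and a lower member. The lower member, XLOC_006012 (36553 to 37901), ended a stretch from 16144 to 37901 with 12 tested loci, chosen after their values were seen. Imatinib averaged below control A in 12 of the 12 and below control B in 11. The median imatinib minus control B difference of the stretch was -4.41 on the log2 scale, and control B was at least 1 above control A in 10. XLOC_006012 itself had 13.2, 19.4 and 9.74 FPKM with imatinib, 96.7, 28.2 and 31.3 FPKM with etoposide, 38.6, 52.3 and 37.9 FPKM in control A and 249.8 ± 31.5 FPKM in control B (SD, n = 3). Some loci of the stretch share an interval, and read assignment between them is not given in the sources used here.

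Scaffold01203, with XLOC_005526 and XLOC_005542 next to each other, was mixed against control A: 5 of its 16 tested loci had an imatinib mean below control A, while 14 had one below control B. Scaffold01077 held the 2 higher members XLOC_004460 and XLOC_004456 (16436 to 20549) side by side, and XLOC_004456 averaged 7.65 ± 1.35 FPKM with imatinib, 3.31 ± 0.973 FPKM with etoposide, 3.53 ± 1.64 FPKM in control A and 8.23 ± 4.83 FPKM in control B (SD, n = 3 each). Over the neighbours of lower members that were not members themselves, 40 of 58 had imatinib below control A (48.7% of all tested loci did) and 13 by at least 0.7 (9.24% of all). Over those of higher members, 33 of 63 had imatinib above control A and 9 by at least 0.7 (11.4% of all). Neighbours share the libraries of the members, so these counts are a description.

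**Figure D5:**
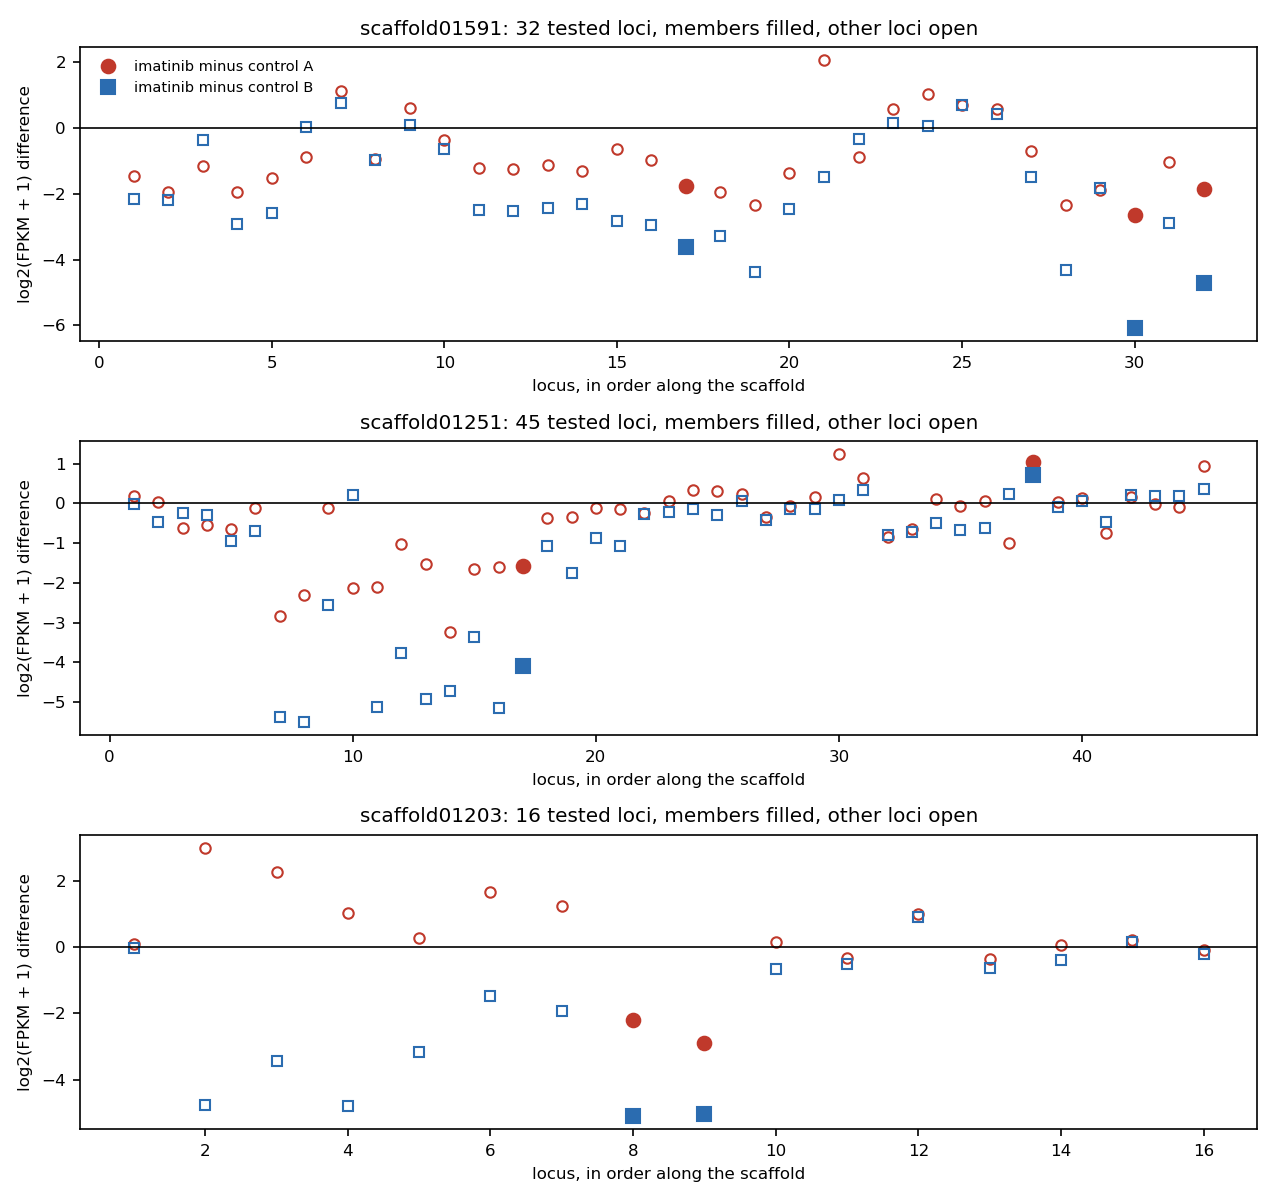
Loci are shown in their order along 3 scaffolds, with the imatinib minus control A (circles) and imatinib minus control B (squares) differences on the log2(FPKM + 1) scale; members are filled. On scaffold01591 and in the first part of scaffold01251 neighbours of the lower members lie below 0 as well.

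Members with more than 1 transcript numbered 10 among the higher and 9 among the lower. Of their transcripts, 9 of 30 in the higher members had imatinib values above all etoposide and control A values. In the lower members 2 of 34 had imatinib values below all of them. The share over all transcripts is not given here, so these counts are not read as high or low. Several transcripts of lower members had etoposide or control A values near 0, which leaves little room below, so the counts of the directions are not compared. In 7 of the 9 lower loci no single transcript had imatinib values below all those of etoposide and control A, so the difference showed in the sum. The largest shifts in transcript share, imatinib against the mean of etoposide and control A, were in the higher members XLOC_015599 and XLOC_016512, and the largest among the lower members was in XLOC_017934. All 3 were chosen after their values were seen. In XLOC_015599 (scaffold02637, 6622 to 10064), TCONS_00028033 made up 21.9% of the locus with imatinib, 50.3% with etoposide and 77.5% in control A; it averaged 0.668 FPKM with imatinib, 0.286 FPKM with etoposide and 0.899 FPKM in control A. In XLOC_016512 (scaffold02888, 50029 to 53910), TCONS_00029728 made up 58.0% of the locus with imatinib, 2.97% with etoposide and 29.4% in control A; it averaged 4.44 FPKM with imatinib, 0.102 FPKM with etoposide and 0.983 FPKM in control A. In XLOC_017934 (scaffold03305, 20614 to 22905), TCONS_00032297 made up 14.4% with imatinib, 30.3% with etoposide and 55.7% in control A; it averaged 0.517 FPKM with imatinib, 2.19 FPKM with etoposide and 4.67 FPKM in control A. Libraries of control A differed widely in each of these transcripts. The imatinib libraries held 0.0568, 1.95 and 7.8e-05 FPKM of TCONS_00028033 and 5.8e-05, 0.0039 and 1.55 FPKM of TCONS_00032297. The etoposide libraries held 2.44, 4.13 and 6.7e-05 FPKM of TCONS_00032297. The shares of these transcripts thus rest on few libraries in more than 1 group, and the split of reads between transcripts is uncertain. In XLOC_018494 both transcripts had imatinib values above the 6 of etoposide and control A, and TCONS_00033319 averaged 46.3 ± 13.6 FPKM with imatinib, 10.0 ± 1.19 FPKM with etoposide and 15.1 ± 11.1 FPKM in control A (SD, n = 3 each).

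Of the 75 members, 12 higher and 5 lower loci overlapped another locus of the table (31.6% and 13.5%, against 29.98% of all tested loci). These values are uncertain where the authors' counting could split or share reads.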

How the data were processed

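Whole-animal mRNA was measured in 15 libraries, 3 in each of 5 groups. Per the submitters' processing notes, which give no order, the tools were Cuffdiff and Cufflinks 2.2.1, Bowtie2 2.1, TopHat2 2.0, Trim Galore and CASAVA 1.8.0. The sources used here name no genome build. The deposited values are FPKM for 33982 transcripts, scaled by the authors for length and depth, so depth per library is unknown and no counting error can be given; the number of libraries limits the precision. FPKM were summed per locus and tested on the scale log2(FPKM + 1) in R 4.3.3 by limma 3.58.1 (trend, all 15 libraries, 5 group means), with Benjamini-Hochberg adjustment over the 18098 loci that averaged 1 FPKM or more and a threshold of 0.05. The fit was tested on simulated data.

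The members, lists and tests were chosen with earlier results of these data known. At most 2 higher and 2 lower loci were named per comparison: those with the largest smaller difference from control A and etoposide; those with the largest difference from control B among called loci beyond all 12 other libraries; those whose control B mean lay farthest from control A towards imatinib; and those nearest the 0.7 limit. Others are said to be chosen after their values were seen.

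Groups share replicate numbers. Deviations from the group means correlated between cisplatin and control B libraries of the same number (r = 0.24, 0.21 and 0.50). For imatinib and control B the correlations were -0.38, -0.29 and -0.37, and for imatinib and etoposide 0.11, -0.12 and 0.35. Values of like size thus occurred with either sign, and they do not settle whether the numbers pair samples. The labels do not say so, and the replicate block was therefore an alternative only. Alternatives were the pseudocount, the filters, the transcript summary, normalization, library weights, the libraries in the fit, the replicate block and leaving out each library.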

Additional observations from a re-analysis of the deposited data

How the results depend on the processing

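The 38 higher and 37 lower members became 58 lower with a pseudocount of 0.1, 7 higher and 23 lower with a minimum difference of 1, and 63 lower with quantile normalization, of which 35 were among the 37. Leaving out one library gave 39 to 176 higher and 35 to 110 lower members. The 33 calls against control A became 17 with library weights and 0 in the fit of the 2 groups compared only. They were also 0 in that fit with the replicate block, an alternative chosen after seeing the data. Leaving out one library gave 1 to 40. Over all loci the calls were 577 higher and 730 lower with library weights, and 2 higher and 0 lower in the fit of the 2 groups. With the replicate block in the fit of all libraries there were 25 calls against control A and 33 against control B, and 29 against control B in the fit of those 2 groups. The block changed no call of cisplatin against control B or of imatinib against etoposide, which had 0 member calls in all 23 alternatives. For imatinib and control B, where same-numbered samples did not correlate positively, the labels give only a shared number. The difference of XLOC_004460 from control B changed sign to 0.12 with quantile normalization, 0.12 with median centring, 0.030 with library weights and 0.46 without control B 1; leaving out one library gave -0.48 to 0.46. That of XLOC_018494 changed sign to 0.20 with median centring, 0.14 without imatinib 2 and 0.13 without control B 1; leaving out one library gave -0.17 to 0.14. The cause was not tested for any of these. FPKM without counts give no depth, so low loci carry an unknown counting error.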
